A study of Drosophila melanogaster with 66 samples.

Results

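CLAMP, a zinc finger protein of Drosophila melanogaster, was compared between male and female embryos collected 2 to 4 h after egg laying. The comparison used the deposited list of enriched regions of each sex, with every region counted once at its highest fold enrichment. The male list held 10466 regions and the female list 10435, together 20901 of the 124393 regions in the 25 lists of the study. There was 1 list per sex, so no difference between the sexes carries a replicate check and no test is given. Intervals are exact 95% Clopper-Pearson intervals of counts and cover counting error only.

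The study used sex-selecting crosses so that embryos of 1 sex could be collected, and profiled chromatin proteins by immunoprecipitation and sequencing across early development. Mothers of both sexes were yw; attP2{PCNA-EGFP}. Fathers of the female embryos carried +/Dp(2:y) CB25-4 with the markers y+ and Rsp[s]B[s], together with SPSD/SD72, and fathers of the male embryos carried 19-3, yw with Rsp[s]-B[s]/Y, together with SPSD/SD72. Both crosses therefore shared the maternal PCNA-EGFP transgene and the paternal segregation distorter chromosomes, while the paternal sex chromosome differed, so that sex, number of X chromosomes and paternal cross cannot be told apart. Each list comes from pooled whole embryos, in which fewer bound nuclei and less binding per nucleus cannot be told apart. The labelled sex was checked on the Y chromosome, where the male list held 16 regions and the female list 3.

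CLAMP binds GA-rich DNA across all chromosomes. In males it helps to bring the male-specific lethal (MSL) complex to the X chromosome. That complex, with its roX RNAs and the subunit MSL3, acetylates histone H4 at lysine 16 (H4K16ac) and raises transcription of the male X. CLAMP is also known at the histone gene locus and at many autosomal promoters in both sexes.

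Most CLAMP regions were present in both sexes. A region was called shared when at least 1 bp of it was covered by a region of the other list. In the male list 9625 regions were shared (92.0%, interval 91.4% to 92.5%), which left 841 male-only regions (8.04%). In the female list 9293 regions were shared (89.1%, interval 88.4% to 89.7%), which left 1142 female-only regions (10.9%). Female regions were wider, with a median of 569 bp against 470 bp in males, and 325 of them overlapped at least 2 male regions, whereas 8 male regions overlapped at least 2 female regions. The smallest width differed as well, at 274 bp in the female and 229 bp in the male list.

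The regions found in 1 sex lay at the low end of fold enrichment. Fold is the ratio of signal to local background that the authors' peak caller gave each region, and it is used here only to rank regions within a list. In the lowest decile of fold 66.1% of male regions and 57.4% of female regions were shared, and in each of the highest 2 deciles every region of both lists was shared. The median fold was 4.88 for shared and 2.67 for male-only regions of the male list, and 4.36 for shared and 2.42 for female-only regions of the female list. Male-only regions were narrow, with a median width of 277 bp against 494 bp for shared ones, and female-only regions had a median of 347 bp against 601 bp. More than 1 summit was called in 2.02% of male-only and 4.73% of female-only regions, compared with 18.1% and 17.2% of shared regions. The nearest region of the other sex was a median of 2525 bp away from a male-only region.

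**Figure D1:**
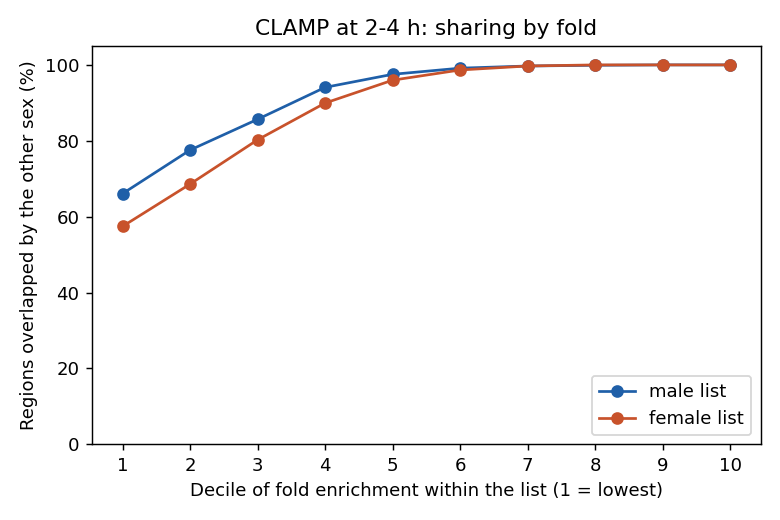
Percent of CLAMP regions overlapped by the other sex (vertical axis) against decile of fold enrichment within each list (horizontal axis, 1 is the lowest), one line per sex. Sharing starts at 66.1% in males and 57.4% in females and reaches 100% in the highest deciles.

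Regions found in 1 sex were divided unequally between the X chromosome and the autosomes. On the X, 381 of 2149 female regions were female-only (17.7%, interval 16.1% to 19.4%), against 79 of 1927 male regions that were male-only (4.10%, interval 3.26% to 5.08%). On the 4 large autosome arms the shares were close, with 735 of 8116 female regions female-only (9.06%, interval 8.44% to 9.70%) and 724 of 8349 male regions male-only (8.67%, interval 8.08% to 9.30%). The single arms ranged from 8.72% to 9.43% in females and from 8.20% to 9.16% in males. The X therefore held 34.1% of the female-only regions on these arms but 9.84% of the male-only ones, while it held 19.3% of shared female and 19.5% of shared male regions. On the small chromosome 4, 24 of 166 male regions were male-only (14.5%) and 25 of 159 female regions female-only (15.7%). On the Y, 14 of 16 male regions were male-only.

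**Figure D2:**
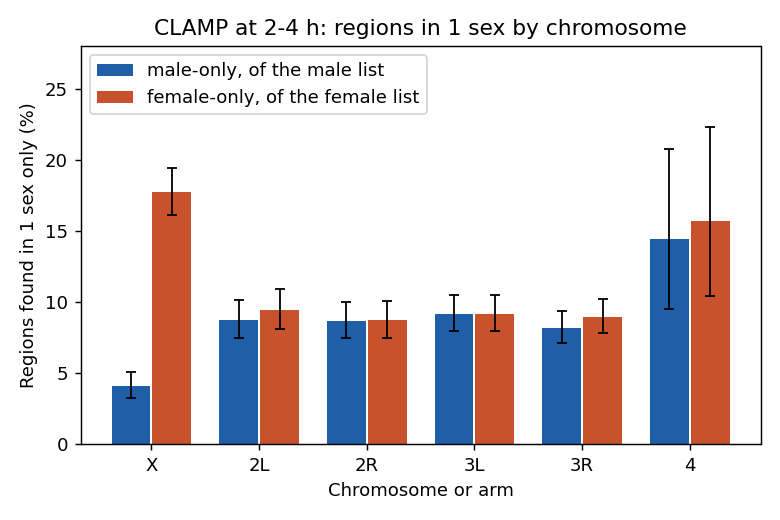
Percent of each list's CLAMP regions found in that sex only (vertical axis) by chromosome or arm (horizontal axis), with exact 95% intervals of counts as error bars. The X stands at 17.7% in females and 4.10% in males, whereas each large autosome arm lies between 8.20% and 9.43% in both.

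The X excess of female-only regions was seen at matched fold within the female list. Such matching does not equalize how readily a region is called in the other list, which was not tested. Over shared X regions the median −log10 q, the strength of a peak call, was 33.7 in the male and 54.0 in the female list. On the autosome arms it was 37.65 and 44.15. Each list was divided into 5 equal classes of fold. In the lowest class of the female list, 215 of 384 X regions were female-only (56.0%), compared with 536 of 1647 autosomal regions (32.5%). In the second class the shares were 28.4% on the X and 11.3% on the autosomes, and in the third class 8.63% and 0.995%. Male-only regions went the other way in the lowest class of the male list, with 52 of 322 on the X (16.2%) and 512 of 1711 on the autosomes (29.9%). In the second class the male-only shares were 4.75% on the X and 11.4% on the autosomes. In the third class they were close, at 1.73% and 1.39%. The female-only excess ran along the whole X. Across its 12 bins of 2 Mb the female-only share was between 11.8% and 23.3% and the male-only share between 2.33% and 6.67%. Among the 54 autosomal bins of 2 Mb with at least 20 regions the median female-only share was 8.89%, and the highest, 30.8%, lay on 3L from 26 to 28 Mb, toward the centromere. Shares as high as on the X were also found toward the centromere of the other arms. They were 24.6% on 2L from 22 to 24 Mb, 21.9% on 2R from 0 to 2 Mb and 23.9% on 3R from 2 to 4 Mb. Male-only shares in these 3 bins were 4.35%, 6.90% and 14.6%.

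On the X and the large autosome arms, with 1 region taken per gene, 6 of the 8 female-only regions of highest fold were on the X, against 2 of the 8 male-only ones. The female-only region of highest fold, 5.16, lay in para, the voltage-gated sodium channel gene, at X:16476464-16476958 (dm6). Others were in CG32816 at fold 4.99, in Sh, the Shaker potassium channel gene, at 4.75 and in mamo, a zinc finger gene, at 4.39. On 2R the actin-binding gene Shrm held one at fold 4.51. Among male-only regions of the same arms the highest folds were both 6.13. The region on 2R lay 2069 bp from cv-2, which encodes a secreted regulator of BMP signalling. The region at X:22354386-22354634 (dm6) lay 89592 bp from the nearest gene, CG14621. Off these arms a male-only region reached fold 6.40. Male-only regions also lay in Eip75B, an ecdysone-induced nuclear receptor gene, at fold 4.67 and in Dg, the dystroglycan gene, at 4.64.

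The X-linked classes differed in how often they coincided with the MSL complex. The male MSL3 list at 2 to 4 h overlapped 21 of 79 male-only X regions (26.6%, interval 17.3% to 37.7%), 131 of 1848 shared X regions (7.09%, interval 5.96% to 8.36%) and 5 of 381 female-only X regions (1.31%). On the autosome arms the order of male-only and shared regions was the opposite, with MSL3 over 3 of 724 male-only regions (0.414%) and 148 of 7625 shared ones (1.94%). Most male-only X regions, 52 of 79, were in the lowest fold class of the male list. There MSL3 overlapped 8 of 52 male-only (15.4%) and 7 of 270 shared X regions (2.59%). It overlapped 9 of 19 male-only and 11 of 381 shared X regions in the second class, and 4 of 7 against 30 of 398 in the third. MSL3 at nuclear cycle 14 covered 34.2% of male-only, 17.2% of shared and 8.40% of female-only X regions. On the autosome arms the cycle 14 list kept the order seen on the X. It covered 8 of 724 male-only (1.1%) and 41 of 7625 shared regions (0.538%). The male CLAMP and MSL3 lists come from embryos of the same sex, and no source used here says whether both came from 1 pool.

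H4K16ac and earlier CLAMP binding were ordered differently, with shared regions highest. The male 2 to 4 h H4K16ac list covered 30.4% of male-only and 24.9% of female-only X regions. The female H4K16ac list covered 20.3% and 28.9%. At least 1 of the 8 CLAMP lists from nuclear cycles 11 to 14 held 1307 of 1848 shared X regions (70.7%), 20 of 79 male-only (25.3%) and 82 of 381 female-only ones (21.5%). The 8 earlier lists ranged from 133 to 8393 regions, so these shares also carry the length of each list.

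**Figure D3:**
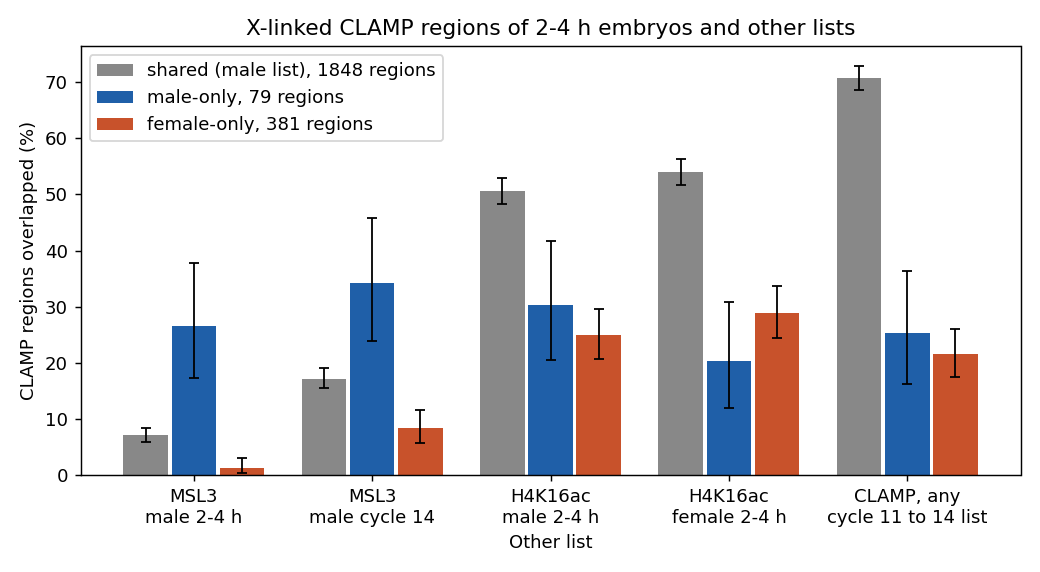
Percent of X-linked CLAMP regions (vertical axis) overlapped by each of 5 other lists or sets (horizontal axis), for 1848 shared, 79 male-only and 381 female-only regions, with exact 95% intervals of counts. MSL3 at 2 to 4 h covers 26.6% of male-only regions, and earlier CLAMP lists cover 70.7% of shared ones.

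The 21 male-only X regions with MSL3 lay in 21 separate MSL3 regions and all overlapped a protein-coding gene. A gene of any type was overlapped by 89.9% of all male-only and 88.0% of shared X regions of the male list. Their male fold ran from 1.72 to 4.18 with a median of 3.21, and the nearest female region was 849 to 3807 bp away. The genes, chosen after their values were seen, included Vav, a guanine nucleotide exchange factor, at fold 4.18, ND-75, a subunit of respiratory complex I, at 4.07, U2af50, a splicing factor, at 4.02, and HUWE1, a ubiquitin ligase, at 3.73.

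Where both sexes had a region, the ranking of fold was close. Each region was paired with the region of the other list that it overlapped most when the choice was mutual, which gave 9285 pairs. Spearman's rank correlation of fold across pairs was 0.904, 0.883 over 1767 X pairs and 0.912 over 7374 autosome pairs; regions of a list share 1 library and are not independent, so no p is given. Of the 500 male regions of highest fold, 417 overlapped 1 of the 500 highest female regions. The band of the top 10% of ranks was shared by 82.4% of its pairs and that of the lowest 10% by 54.5%.

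X pairs ranked lower in the male list than in the female list. The male percentile rank minus the female one had a median of -2.15 points on the X and 0.58 on the autosome arms, and the male rank was the higher one in 38.9% of X and 53.6% of autosome pairs. A rank at least 25 points higher in the female list occurred in 295 of all pairs (3.18%), that is in 127 on the X (7.19%) and 166 on the autosome arms (2.25%). The opposite shift occurred in 258 pairs (2.78%), with 2.32% on the X and 2.92% on the arms.

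**Figure D4:**
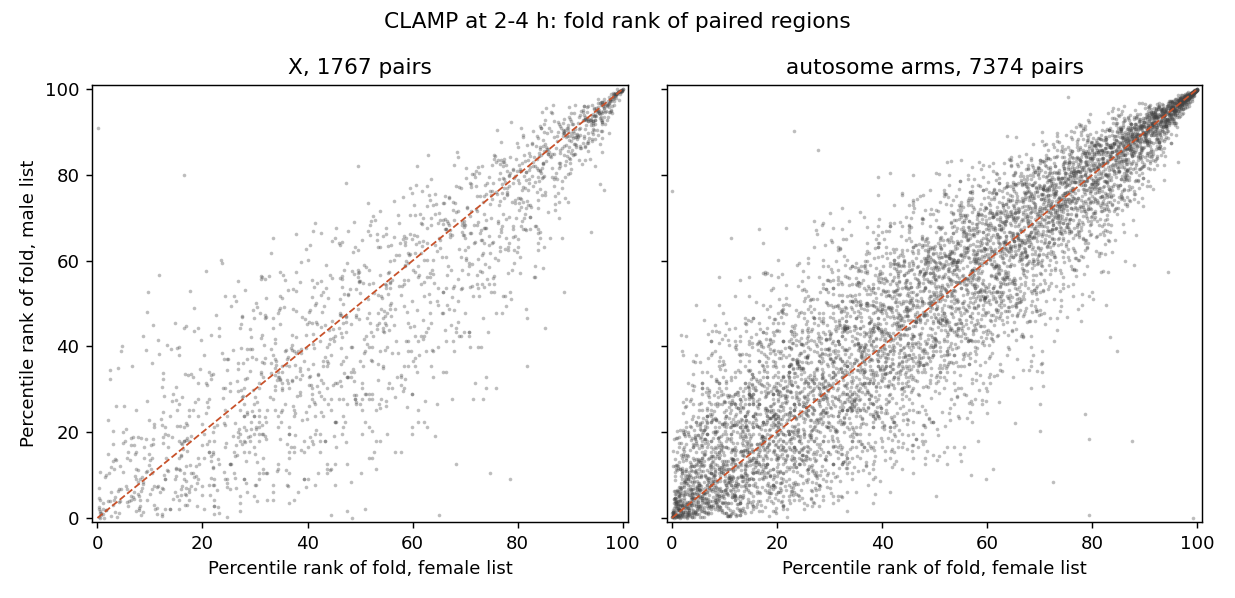
Percentile rank of fold in the male list (vertical axis) against that in the female list (horizontal axis) for each pair, X on the left and autosome arms on the right, with the line of equal rank dashed. Points above the line, where the male rank is the higher one, make up 38.9% of X pairs against 53.6% of pairs on the arms.

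A few pairs were far from the line. The region in lin-52, which encodes a subunit of the DREAM/MuvB complex, had fold 10.9 in males and 1.46 in females, although it was 1028 bp and 1006 bp wide. In FBXO11, an F-box gene on 3R, the male fold was 1.55 and the female fold 17.4, with widths of 841 bp and 927 bp. Their summits lay 72 bp and 18 bp apart. These regions are wide for their low fold: regions under fold 2 had a median width of 309 bp in the male and 356 bp in the female list. The low value of each pair was not tested further. Of the 4 earlier CLAMP lists of the sex with the low value, 3 held the lin-52 region and 3 the FBXO11 region. Folds were 8.35 and 8.85 for lin-52 in female cycles 11 and 13, and 11.5 and 9.28 for FBXO11 in male cycles 13 and 14. Male rank was also higher at ed, a cell adhesion gene (fold 7.39 and 1.49), and female rank at pasha, a partner of Drosha (1.93 and 6.88). The ed region had fold 5.97 and 6.16 in female cycles 11 and 13, whereas no earlier CLAMP list held the pasha region.

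Male regions of a pair were narrower, and more so on the X. Because the smallest width was 229 bp in the male and 274 bp in the female list, widths of the lists are not on 1 scale. How much of the difference in width between the sexes comes from this was not tested. The median ratio of male to female width was 0.817 on the X and 0.882 on the autosome arms, with median widths of 475 bp and 622 bp on the X and 508 bp and 596 bp on the arms. The male region was wider in 8.49% of X pairs and 17.7% of autosome pairs, and it lay inside the female one in 75.3% and 58.5%. Among pairs within 5 rank points of each other the ratios were 0.842 on the X and 0.886 on the arms. Of the 6 pairs with the largest excess of female width, 5 were on the X. Among them were Mipp2, an inositol polyphosphate phosphatase gene (260 bp and 2094 bp), and Hr4, a nuclear receptor gene (434 bp and 2094 bp). At Hr4 the female region overlapped 2 male regions, and the male width given is that of the paired region. The widest male region, 3605 bp against 1253 bp in females, lay at slam, a gene of cellularization.

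**Figure D5:**
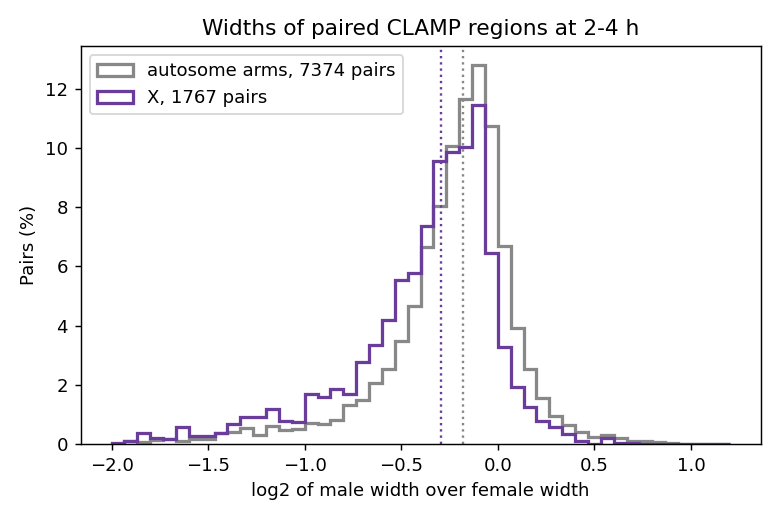
Distribution of log2 of male width over female width (horizontal axis) as percent of pairs (vertical axis) for X and autosome pairs, with medians dotted. The X distribution lies further left, with a median ratio of 0.817 against 0.882.

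Summit positions differed little between the sexes. The highest summits of a pair lay a median of 18 bp apart and within 50 bp in 7719 pairs (83.1%). In 175 pairs they were more than 500 bp apart. The median distance was 8 bp in the top 10% of ranks and 35 bp in the lowest 10%.

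Genes were called when a region lay in the gene or within 1 kb of it. Of the protein-coding genes, 8114 had CLAMP in both lists (58.2%), 189 in the male list only (1.36%) and 365 in the female list only (2.62%). On the X, 1356 genes had it in both (61.7%), 15 in males only (0.683%) and 112 in females only (5.1%). On the autosome arms the numbers were 6686 (57.4%), 174 (1.49%) and 250 (2.15%). Of the 365 genes with CLAMP in females only, 41 were reached only by the edge of a shared region.

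Genes of the dosage compensation machinery had CLAMP in both sexes, 8 of 8. At roX1, which encodes an RNA of the MSL complex, the region had fold 7.05 in males and 6.91 in females, and at roX2, the other RNA gene, 12.0 and 10.4. A second region beside roX2, at X:11578912-11579164 (dm6), was male-only at fold 2.77, with the nearest female region 822 bp away. The gene msl-2, whose product is made in males and nucleates the complex, had folds 6.98 and 5.52. The scaffold gene msl-1 had folds 7.70 and 6.76, and msl-3, which encodes MSL3, 7.46 and 6.72. The acetyltransferase gene mof had 2 regions in each sex, with folds no higher than 3.78 in males and 3.66 in females. The helicase gene mle had 3 regions in each sex, and Clamp itself had folds 12.2 and 9.73. Sxl, the master switch of female development, had 4 regions in each list, of which a female region at X:7089487-7090243 (dm6) with fold 1.83 was female-only.

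The 14 gene lists other than ribosomal proteins and the histone cluster, from dosage compensation and sex determination to patterning and chromatin, held 156 genes, of which 149 had CLAMP in both sexes, 0 in males only and 2 in females only. Against the background of 58.2%, all 13 gap, 9 pair-rule, 14 segment polarity and 12 Hox genes had CLAMP in both. The strongest region of a gap gene had a median fold of 15.9 in males and 12.8 in females, compared with 5.86 and 5.22 over all protein-coding genes with CLAMP in both. Among head gap genes, ems had folds 24.3 and 20.8 and oc 19.7 and 19.1. The Hox gene Abd-B had 27.5 and 22.3, and the segment polarity gene fz, which encodes a Wnt receptor, 22.1 and 15.4. The pair-rule gene slp1 had 17.1 and 12.8. The mesoderm determinant twi had 20.2 and 17.4.

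The 8 pioneer and GA-binding factor genes, 9 genes of the first zygotic wave and 19 Polycomb and Trithorax group genes also had CLAMP in both sexes. Of 16 cell cycle genes 15 did, and twe, a Cdc25 phosphatase gene, had it in neither; of 11 insulator genes 10 did, and ZIPIC had it in neither.

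The 2 genes of these lists with CLAMP in females only were dl, the dorsal-ventral morphogen gene, with fold 3.82 at 2L:17449378-17449893 (dm6), and the eye pigment gene v, with fold 3.03. Of 13 classic dosage-compensated X genes, 9 had CLAMP in both sexes (69.2%), near the 61.7% of all protein-coding X genes. Zw, m and per had it in neither. Of 92 cytoplasmic ribosomal protein genes 88 had it in both, and RpL37-2 and RpL22-like had it in females only. RpL14 had the highest fold, 20.7 in males and 17.7 in females.

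The regions of highest fold were common to both sexes. The highest of either list lay at His3:CG31613 in the histone cluster, with folds 40.5 and 30.5. Of the 111 histone genes in the cluster 4 had CLAMP in both, 6 in males only and the rest in neither; these near-identical copies share reads, and no source used here says how such reads were placed, so single copies are uncertain. The same holds for ribosomal RNA sequences on the X, with folds of 34.4 and 29.6 at pre-rRNA:CR45856. Among single-copy genes, the X-linked homeobox gene B-H1 had folds 26.9 and 23.5, and the autosomal sodium/calcium exchanger gene Nckx30C 29.8 and 24.8.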

How the data were processed

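CLAMP peak lists of male and female embryos at 2 to 4 h, 1 sample per sex, were compared. The authors' tools, per the submitters' processing notes, include Bowtie2, Picard, SAMtools 1.9 and MACS2 2.1.1 with the dm6 build; the control library and any pooling of replicates are not given in the sources used here. The deposited columns hold fold enrichment as a ratio, −log10 p-value, −log10 q-value, a display score and a summit offset. Depth is unknown, so values are ranked only within a list. From the deposited rows, regions with the same start and end were merged at their highest fold. Overlap of 1 bp counted as shared. Genes came from the RefSeq Release 6 table with a 1 kb flank; that table gives no strand or exons here. Python 3.11.15, numpy 2.4.6, pandas 2.3.3, scipy 1.17.1 and matplotlib 3.10.9 were used, and the overlap, pairing and ranking steps were tested on simulated data. Named genes came from roX1, roX2, the MSL genes, Clamp and Sxl, the members of highest fold in each gene list, the 5 pairs of highest fold on the X and on the autosomes, the 8 regions of highest fold found in each sex only on the X and the large autosome arms (1 per gene), and the 6 pairs of largest rank difference (above the median rank in at least 1 list) or width ratio each way; the text gives those of clearest known role. Members and gene lists were chosen with earlier results of these data known. Alternatives changed the overlap, q-value, fold rank, gene flank, summit number and width. IgG and input samples were not analysed here.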

Additional observations from a re-analysis of the deposited data

How the results depend on the processing

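Of 69 recomputed values of 10 results under 13 settings, 44 stayed close to the main value, 25 moved and 0 reversed. Close meant within the interval of the main value or, for gene counts, within 1.5 times the count. For the rank correlation and the X rank shift that interval was taken over regions, which are not independent. The shared male percentage, 92.0%, became 92.7% with a 500 bp allowance. For regions of −log10 q at least 5 against the whole other list it was 93.3%. It was 88.8% when both lists were cut to their 5000 regions of highest fold. The shared female percentage, 89.1%, became 89.8%, 90.8% and 87.7% in the same settings, and 86.3% when 50% of a region had to be covered. Against the whole other list, 9 male and 11 female regions of these 5000 were unmatched. The lower sharing in the cut lists is therefore mostly a matter of rank, not of presence. Female-only X regions, 17.7%, became 22.3% at 50% coverage and 15.9% at the q-value limit. In the lists cut to 5000, 19.6% of female and 8.88% of male X regions had no match in the other cut list. The X held 15.3% of such male regions on the X and large autosome arms. The rank correlation of fold was 0.909 at 50% coverage and 0.854 in the top 5000, which also left 5052 genes in both. Ranked by −log10 q the X shift was -4.98. Settings chosen after seeing the data included 1 summit only and widths over 300 bp. With 1 summit only, 90.5% and 87.6% were shared and 20.5% female-only on the X. Widths over 300 bp gave 96.8% and 90.9% shared, 1.87% male-only and 15.4% female-only on the X. That limit kept 8788 of 10466 male and 9993 of 10435 female regions, so it cut the lists unequally. Gene counts by summits in place of regions, and every alternative setting for MSL3, were also chosen after seeing the data. MSL3 over male-only X regions was 15.2% for MSL3 regions of −log10 q at least 3 and 40% over CLAMP regions wider than 300 bp. The cause was not tested. No paired analysis was possible because each sex has 1 list. Without replicates or depths, a region missing from 1 list was not detectable there and is not shown to be unbound.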
